A study of Mus musculus with 6 samples.

Results

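The genes described here encode enzymes that remove superoxide and peroxides, together with a lipid radical guard: the superoxide dismutases Sod1, Sod2 and Sod3, the catalase Cat, the glutathione peroxidases Gpx1, Gpx3 and Gpx4, the mitochondrial peroxiredoxin Prdx3, the mitochondrial thioredoxin reductase Txnrd2, and Aifm2. They were taken by gene name, 10 of the 43074 names in each expression table, and all 10 were found. RNA was sequenced from mouse soleus, a postural calf muscle rich in slow oxidative fibres, in 3 libraries labelled mKO (StarD7 mKO mice) and 3 labelled WT (control mice). StarD7 is a lipid transfer protein that carries phosphatidylcholine, with a pool at mitochondria. The series text gives 3 mice per group, but no label ties a library to an animal. Animal age, sex and strain, the deleted exons and any Cre driver were not stated, and no treatment is named for either group.

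Superoxide arises when electrons leak from the respiratory chain or are passed to oxygen by oxidases, and superoxide dismutases turn it into hydrogen peroxide in 3 compartments. Sod1, a copper and zinc enzyme, works in the cytosol, Sod2, a manganese enzyme, in the mitochondrial matrix, and Sod3, also a copper and zinc enzyme, outside the cell, where it is bound to matrix and cell surface. Catalase, the glutathione peroxidases and the peroxiredoxins then remove the peroxide. Gpx4 reduces peroxides within membrane lipids, and it and the coenzyme Q reductase encoded by Aifm2 are among the known guards against ferroptosis, the cell death driven by iron and lipid peroxidation.

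Some of these products carry features that are visible in their coding sequence, and the sequences below show the features to which their roles are tied. All were read from GENCODE M21 transcripts (build GRCm38, plus strand in each case). Sod3 ends in a stretch of basic residues by which the secreted enzyme holds on to heparan sulphate. Capitals mark the longest uninterrupted run of arginine and lysine codons among its 252 codons, 6 codons that begin at codon 239 (chr5:52368654-52368713).
Sod3: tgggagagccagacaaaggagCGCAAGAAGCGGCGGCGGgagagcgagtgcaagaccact

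Gpx1, Gpx3, Gpx4 and Txnrd2 are selenoproteins, in which an internal TGA codon, a stop codon elsewhere, is read as selenocysteine at the catalytic site. Capitals mark that codon as annotated, at codon 47 of Gpx1 (chr9:108339430-108339474), 73 of Gpx3 (chr11:54907235-54907279), 129 of Gpx4 (chr10:80054716-80054760) and 526 of Txnrd2 (chr16:18477751-18477780). Each number counts from the start of the longest complete coding sequence that carries the codon. For Gpx4 this is Gpx4-201, with 254 codons, and positions in other transcripts were not worked out. In the 3 peroxidases at least 125 codons follow the TGA, whereas in Txnrd2 only 2 follow it, the last of them the stop.
Gpx1: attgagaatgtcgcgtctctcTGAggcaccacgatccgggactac
Gpx3: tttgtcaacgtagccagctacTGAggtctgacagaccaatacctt
Gpx4: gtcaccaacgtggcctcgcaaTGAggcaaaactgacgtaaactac
Txnrd2: gagcctactgtgactggttgcTGAggctaa

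The targeted gene fitted its labels: Stard7 stood at 21.8, 21.3 and 34.6 TPM in the mKO libraries, against 87.5, 95.4 and 95.0 TPM in the WT libraries (TPM is a share of reads corrected for gene length and scaled to a sum of 1000000). Multiplied by exon length and a library scale, the TPM values gave whole reads for 93.12% of 22734 genes, which held 40134352 to 44490886 reads per mKO library and 44638389 to 48346492 per WT library. All 10 antioxidant genes gave whole reads in every library, between 457 reads (Txnrd2) and 19468 (Sod2). Markers of muscle fibres dominated the tissue, at a summed 54709 to 56551 TPM in mKO and 61139 to 65171 TPM in WT. Mitochondrially encoded genes took 46.8% to 48.9% of all TPM in mKO and 42.1% to 45.1% in WT, which lowers the share left to every nuclear gene. Fold changes below are mKO over WT on log2(TPM + 1) from limma-trend, with Benjamini-Hochberg adjustment over the 12301 genes tested and a threshold of 0.05.

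Of the 10 genes, 1 passed the threshold. Sod3 rose in mKO, and none of the 10 fell. The other 9 lay within 0.21 log2 units of no change, 4 above it and 5 below it, and the signs of Sod1, Gpx3, Prdx3 and Aifm2 turned under some alternative settings. Over all genes tested 0.52% were called, 0.0976% as higher and 0.423% as lower in mKO. The median log2 fold change was 0.03 over the 10 genes and −0.01 over all genes. At an unadjusted p under 0.05 stood 2 of the 10 genes, Sod3 and Gpx4, against 10.7% of all genes, and limma-voom on the recovered reads called Sod3 and none of the other 9.

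**Figure D1:**
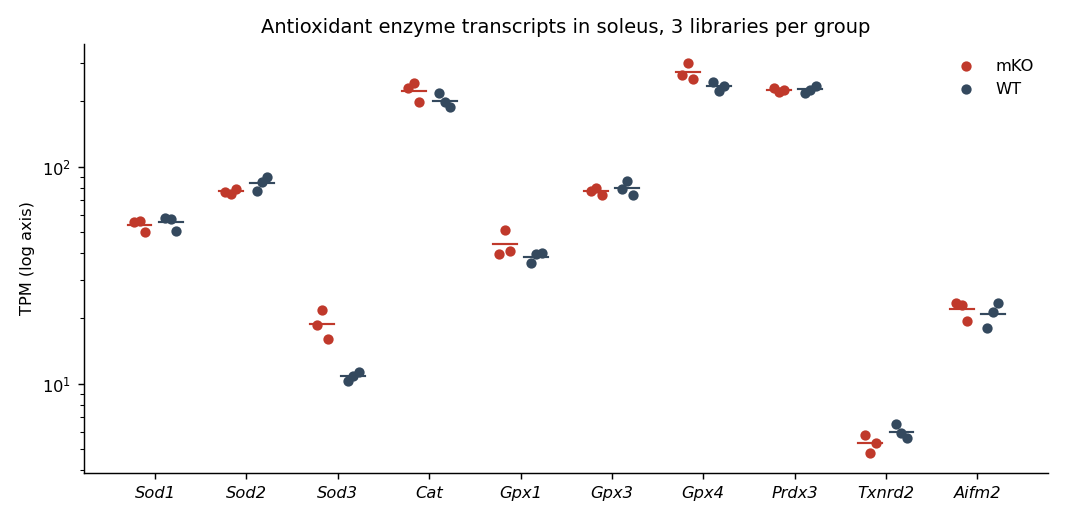
TPM (log axis) of the 10 genes in each library, mKO in red to the left of WT in blue, with a line at the mean of 3 libraries. Sod3 is the gene with a wide gap between groups, 16.0 to 21.8 TPM in mKO and 10.3 to 11.3 TPM in WT.

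Sod3 stood at 18.7, 21.8 and 16.0 TPM in mKO replicates 1, 2 and 3, against 10.3, 10.8 and 11.3 TPM in WT replicates 1, 2 and 3. Each mKO library was above each WT library, and the mKO libraries were spread more widely among themselves. The means were 18.8 ± 2.91 TPM in mKO and 10.8 ± 0.497 TPM in WT (SD, n = 3 each), a ratio of 1.74. The log2 fold change was 0.74 (SE 0.11, 95% interval 0.49 to 0.98, adjusted p = 0.0395, limma), the 38th smallest p of the 12301 genes. The reads behind it numbered 1432, 1773 and 1195 in mKO and 891, 846 and 921 in WT, so that counting error alone amounted to 2.37% to 3.44% of a value, below the 15.4% coefficient of variation among mKO libraries. In bulk muscle, fewer cells of a type and less RNA per cell cannot be told apart, and the same holds for more.

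The direction and rough size of the Sod3 difference held in the 14 alternative settings plotted, with log2 fold changes of 0.63 to 0.87. The call itself held in 7 of them (adjusted p from 0.0103 to 0.231). It was lost with no filter on low genes (0.158), with no intensity trend in the variance (0.0720), and when mKO replicate 1 (adjusted p = 0.172), mKO replicate 2 (0.0554), WT replicate 1 (0.116), WT replicate 2 (0.231) or WT replicate 3 (0.113) was left out, and stayed without mKO replicate 3 (0.0103, limma). Without mKO replicate 2, the library with the highest Sod3, the log2 fold change was 0.63. A further planned fit, with replicate number as a block, is not plotted. The call was lost there too (adjusted p = 0.0881, limma).

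**Figure D2:**
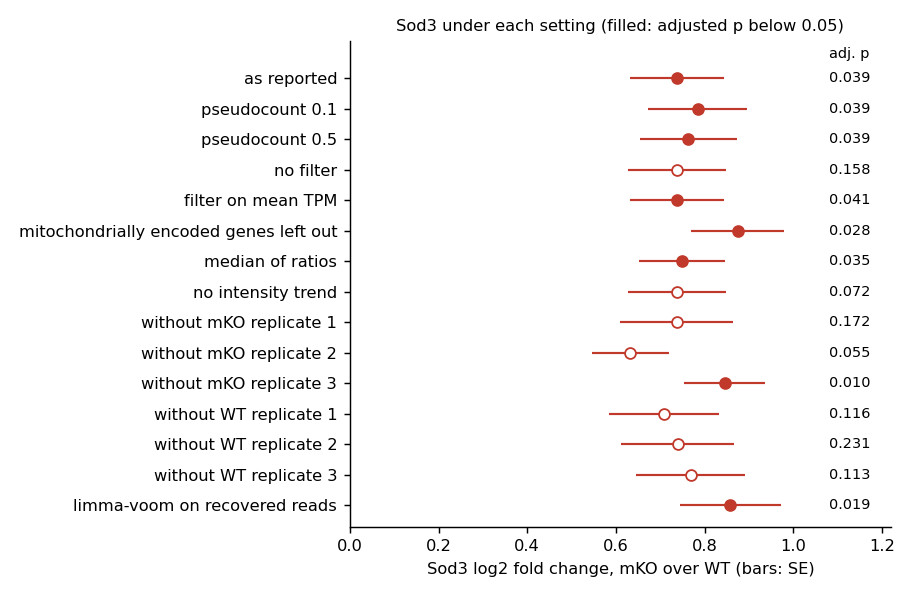
Log2 fold change of Sod3, mKO over WT, with its SE under the settings named at the left, and the adjusted p at the right. Filled points pass the threshold of 0.05, and all points lie between 0.63 and 0.87.

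Sod3 is also expressed by stromal and vascular cells, so the summed levels of their marker lists are given by library. All 11 fibroblast markers were tested and 0 were called, with 6 above 0 and 5 below. The smallest p-values were those of Pi16, at 20.5, 31.05 and 24.5 TPM in mKO and 21.6, 18.1 and 18.2 TPM in WT (log2 fold change 0.36, adjusted p = 0.412, limma), and Pdgfra, at 7.98, 9.94 and 9.40 TPM in mKO and 7.06, 7.84 and 7.98 TPM in WT (0.23, adjusted p = 0.437). Both had higher means in mKO. The collagen genes Col1a1 and Col1a2, which weigh more in the sum, had log2 fold changes of −0.33 each (adjusted p = 0.588 for both, limma). The sum of the 11 markers was 617, 977 and 808 TPM in mKO replicates 1, 2 and 3, and 852, 916 and 777 TPM in WT replicates 1, 2 and 3. The highest fibroblast sum of the 6 libraries was in mKO replicate 2 and the lowest in mKO replicate 1. The relation of this sum to Sod3 was not tested. The 7 smooth muscle markers summed to 203, 189 and 240 TPM in mKO and 212, 218 and 212 TPM in WT, and here mKO replicate 2 was the lowest. Endothelial markers (8 tested) summed to 241 to 249 TPM in mKO and 257 to 259 TPM in WT, and pericyte markers (5 tested) to 363 to 401 TPM in mKO and 418 to 435 TPM in WT. Both sums were lower in every mKO library on the deposited scale. With the mitochondrially encoded genes dropped, in a scaling chosen after seeing the data, the groups overlapped in both, at 453 to 481 in mKO and 448 to 468 in WT for endothelium and at 683 to 785 in mKO and 740 to 780 in WT for pericytes.

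Macrophage markers (9 tested) summed to 120 to 217 TPM in mKO and 140 to 164 TPM in WT, adipocyte markers (6) to 113 to 171 and 110 to 247 TPM, Schwann cell markers (6) to 88.1 to 116 and 82.5 to 117 TPM, satellite cell markers (4 of 5 tested) to 12.8 to 18.5 and 14.0 to 15.4 TPM, and red cell markers (5 of 6) to 560 to 1249 and 896 to 1191 TPM, mKO first in each pair. The groups overlapped in each of these sums. No marker in any of the lists for cells other than muscle fibres was called by limma, and the defining neutrophil gene Ly6g was listed at 0 in all libraries. Of 12 fast fibre markers 5 were called lower and none higher, against 0.423% and 0.0976% of all genes. All 12 had log2 fold changes below 0. In 11 of them the groups did not overlap and mKO was lower, against 10.3% of all genes. Of 10 slow fibre markers 1, Pln, was called higher and none lower, with 9 above 0 and 1 below. The slow sums overlapped, at 19250 to 27442 TPM in mKO and 17860 to 23182 TPM in WT. Fast fibre markers summed to 28736 to 37809 TPM in mKO, with the highest sum in replicate 3, and to 46478 to 54433 TPM in WT. With the mitochondrially encoded genes dropped, the fast sums still did not overlap, at 54060.5 to 73054.5 in mKO and 82221.7 to 94023.9 in WT. The muscle fibre sums also stayed apart, at 105709 to 107561 in mKO and 111324 to 112573 in WT. The part of fibre composition, or of any cell type listed, in the Sod3 difference was not tested.

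Sod2, the matrix enzyme, stood at 76.3, 75.2 and 79.1 TPM in mKO and at 76.8, 85.0 and 89.2 TPM in WT. The ranges overlapped at their edge, with 2 of the WT libraries above all mKO libraries. The log2 fold change was −0.12 (SE 0.06, 95% interval −0.27 to 0.03, adjusted p = 0.577, limma). Sod1, the cytosolic enzyme, was at 55.8, 56.3 and 50.1 TPM in mKO and 57.8, 57.6 and 50.6 TPM in WT, which interleave, with a log2 fold change of −0.03 (interval −0.20 to 0.14, adjusted p = 0.917, limma). Ccs, the chaperone that loads copper into Sod1, likewise did not pass (−0.05, adjusted p = 0.889).

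On the deposited scale the sum of the 3 dismutase transcripts was close in both groups, 150 ± 4.11 TPM in mKO and 150 ± 4.40 TPM in WT (SD, n = 3 each). That closeness depends on the scaling. With mitochondrially encoded genes left out, the log2 fold changes were 0.08 for Sod1, −0.003 for Sod2 and 0.87 for Sod3. The shares within the sum do not depend on the scaling between libraries. The make-up of the sum shifted towards the extracellular enzyme. Sod3 held 12.4%, 14.2% and 11.0% of it in mKO and 7.11%, 7.05% and 7.48% in WT. Sod2 held 51.4% ± 2.81 in mKO and 55.8% ± 3.03 in WT, and Sod1 36.1% ± 1.37 and 37.0% ± 3.23. These shares compare genes on the deposited per-length scale, which matters for Sod1 as described next.

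The order of the 10 genes by level depended on which length was used. The deposited values match division by all annotated exons. For Sod1 these come to 3970 bases, whereas its longest protein-coding transcript has 641 bases, a ratio of 6.19. Per all exons, as deposited, Sod1 ranked 6th of 10 in both groups, at 54.0 ± 3.43 TPM in mKO and 55.4 ± 4.10 TPM in WT (SD, n = 3 each). Per longest coding transcript, an alternative chosen after seeing the data, it ranked 2nd, at 312 ± 18.3 in mKO and 314 ± 20.3 in WT, on a TPM-like scale. For the other 9 genes the length ratio was between 1 and 1.73. On the second scale Sod3 held 3.87% ± 0.460 of the dismutase sum in mKO and 2.18% ± 0.165 in WT, a difference of 1.69 points in place of 5.34. Its share was higher in each mKO library on both scales.

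**Figure D3:**
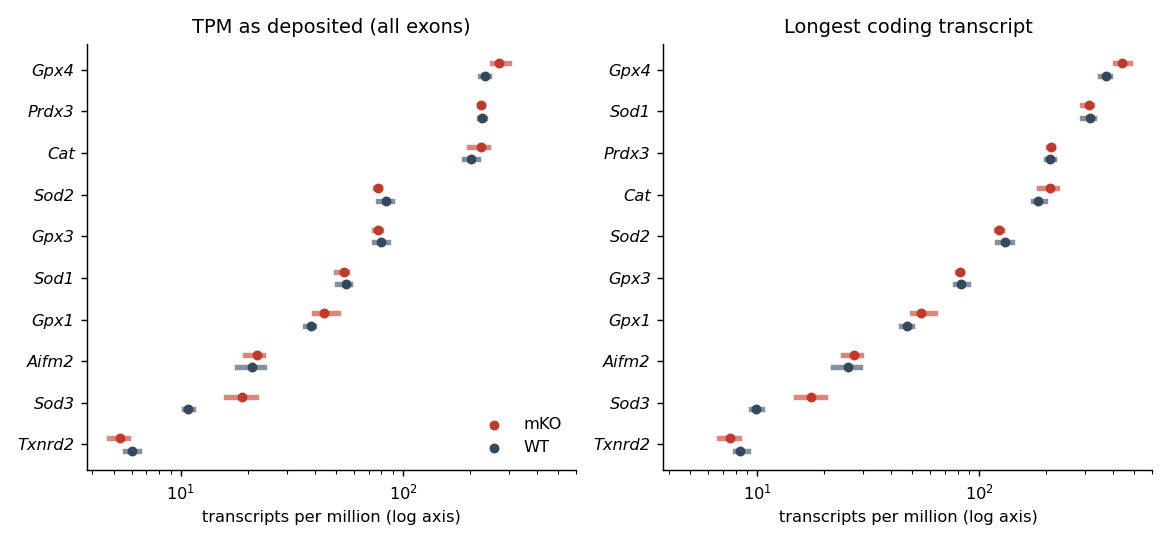
Levels of the 10 genes on a TPM scale (log axis) divided by all annotated exons, as deposited, or by the longest coding transcript. Points are means of 3 libraries and bars their range, mKO above WT, and Sod1 moves from 6th to 2nd place between the panels.

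As deposited, Gpx4 was the most abundant of the 10 transcripts in both groups and Txnrd2 the least. In mKO the order was Gpx4, Prdx3, Cat, Gpx3, Sod2, Sod1, Gpx1, Aifm2, Sod3 and Txnrd2, where the ranges of Prdx3 and Cat, of Gpx3 and Sod2, of Sod1 and Gpx1, and of Aifm2 and Sod3 overlapped. In WT Sod2 stood before Gpx3 and the rest of the order was the same, with overlaps between Gpx4 and Prdx3 and between Sod2 and Gpx3. Aifm2 and Sod3, which overlapped in mKO, were apart in WT, at 18.0 to 23.6 TPM and 10.3 to 11.3 TPM. By the level in WT, Gpx4, Prdx3 and Cat lay above the 96th percentile of tested genes, Sod3 at the 56.9th and Txnrd2 at the 40.3rd.

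Cat, the peroxisomal catalase, stood at 231, 242 and 198 TPM in mKO and 218, 198 and 189 TPM in WT. The lowest mKO value lay within the WT range, and the log2 fold change of 0.15 (SE 0.09, 95% interval −0.05 to 0.35, adjusted p = 0.61, limma) did not pass. Gpx1, the cytosolic and mitochondrial glutathione peroxidase, was at 39.6, 51.1 and 40.9 TPM in mKO and 36.1, 39.5 and 39.9 TPM in WT. mKO replicate 2 stood apart from the other libraries, and the log2 fold change was 0.18 (SE 0.10, interval −0.05 to 0.40, adjusted p = 0.589), or 0.06 without that library.

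Gpx4, which reduces lipid peroxides in membranes, stood at 264, 299 and 252 TPM in mKO, against 245, 222 and 236 TPM in WT. The groups did not overlap. This held for 2 of the 10 genes, Sod3 and Gpx4, both higher in mKO, and for 16% of all genes tested, 5.67% as higher and 10.3% as lower in mKO. The Gpx4 log2 fold change was 0.21 (SE 0.07, 95% interval 0.04 to 0.38), and it did not pass over all genes (adjusted p = 0.34, limma). The call was absent in all 14 alternatives (adjusted p from 0.115 to 0.756). The interval corresponds to 1.03 to 1.30 times WT. GENCODE M21 lists a processed pseudogene of Gpx4, and no source used here says how reads shared with it were counted.

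Gpx3, the secreted plasma peroxidase, was at 76.8, 79.9 and 74.2 TPM in mKO and 79.2, 86.0 and 74.0 TPM in WT, with a log2 fold change of −0.05 (SE 0.07, interval −0.20 to 0.10, adjusted p = 0.857, limma). The mKO range lay inside that of WT. Sod3 and Gpx3 are the secreted enzymes of the set, and the difference between their fold changes was not tested.

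Prdx3, which removes hydrogen peroxide in the matrix, had the lowest coefficient of variation of the 10 genes in both groups, 2.16% in mKO and 3.44% in WT. It stood at 229, 220 and 226 TPM in mKO and 219, 226 and 235 TPM in WT (log2 fold change −0.01, SE 0.05, adjusted p = 0.967, limma). The 95% interval runs from 0.92 to 1.07 times WT. Txnrd2, which keeps the thioredoxin that serves Prdx3 reduced, was at 5.80, 4.77 and 5.35 TPM in mKO and 6.49, 5.92 and 5.60 TPM in WT. Its lowest WT value lay below the highest mKO value, and its log2 fold change of −0.15 (SE 0.09, interval −0.36 to 0.06, adjusted p = 0.626) did not pass.

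Aifm2, the ferroptosis suppressor that regenerates reduced coenzyme Q, was at 23.5, 23.04 and 19.4 TPM in mKO and 18.0, 21.5 and 23.6 TPM in WT. The mKO range lay within the WT range, and the log2 fold change was 0.07 (SE 0.11, 95% interval −0.19 to 0.32, adjusted p = 0.891, limma). It had the widest interval of the 9 uncalled genes, 0.876 to 1.25 times WT. Of its exon bases 5.65% are shared with a gene on the opposite strand, and no source used here says whether counting used strand.

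**Figure D4:**
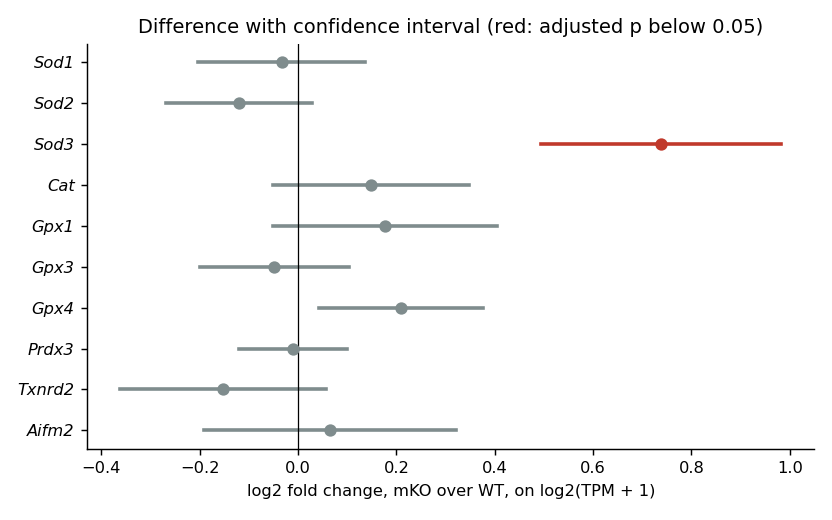
Log2 fold change, mKO over WT, of the 10 genes with its 95% interval from limma. Sod3, in red, lies at 0.74 with an interval of 0.49 to 0.98, and of the uncalled genes only Gpx4 has an interval that leaves out 0 (0.04 to 0.38).

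Directions of the smallest differences turned with the scaling. With mitochondrially encoded genes left out, the median of all genes shifted by 0.11, and Sod1 (0.08), Gpx3 (0.07) and Prdx3 (0.11) moved to the positive side while Sod2 lay at −0.00 and Txnrd2 at −0.06. Relative to the median of all genes, 6 of the 10 genes lay above it under both scalings. Sod3 was then at 0.87 (adjusted p = 0.0283) and Gpx4 at 0.33 (adjusted p = 0.115, limma).

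The wider redox system was examined in 10 further lists with 142 genes outside the set, of which 127 were tested. Limma called 0 of them, as did limma-voom, and 5 higher and 13 lower had an unadjusted p under 0.05, 14.2% against 10.7% of all genes. Their median log2 fold change was −0.01. Expression without overlap between groups was seen for 25 of them, 19.7% against 16%.

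In the list of the remaining peroxidases, which also held the Sod1 chaperone and a methionine sulphoxide reductase, 9 of 12 genes were tested and none passed. Gpx8, a peroxidase of the endoplasmic reticulum, had the smallest p (22.5 ± 3.69 TPM in mKO and 18.8 ± 1.81 TPM in WT, log2 fold change 0.24, adjusted p = 0.524), followed by Prdx2, a cytosolic peroxiredoxin (0.07, adjusted p = 0.678). Gpx2, Gpx5 and Gpx6 were listed at 0 in all libraries. In the thioredoxin list 0 of 12 genes passed, with Srxn1, which repairs overoxidised peroxiredoxins, at 0.15 (adjusted p = 0.552) and Msrb2, a mitochondrial methionine sulphoxide reductase, at −0.19 (adjusted p = 0.675).

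The smallest p-values of the wider lists lay among detoxifying enzymes, none of which passed as reported. Gsta4, a glutathione transferase that acts on lipid aldehydes, stood at 38.8, 39.3 and 36.5 TPM in mKO, against 32.0, 30.7 and 27.1 TPM in WT (log2 fold change 0.34, SE 0.07, adjusted p = 0.119, limma), and passed with mitochondrially encoded genes left out (adjusted p = 0.0439). Nqo1, a quinone reductase and a standard target of the transcription factor NRF2, stood at 61.2, 48.6 and 40.8 TPM in mKO and 36.0, 31.4 and 28.0 TPM in WT (0.63, SE 0.15, adjusted p = 0.157). Mgst1, a membrane-bound glutathione transferase, was at 44.6, 36.9 and 35.1 TPM in mKO and 46.5, 54.9 and 54.4 TPM in WT (−0.41, SE 0.10, adjusted p = 0.18). In each of these 3 genes the groups did not overlap, which naming genes by small p favours, and the same held for 16% of all genes tested. Of the 15 tested genes of the NRF2 list, 8 were above 0 and 7 below, with a median of 0.01. Of 21 glutathione genes 7 were above and 14 below, with a median of −0.02. The groups did not overlap in 5 of these NRF2 genes and 7 of these glutathione genes, 33.3% of each list. An unadjusted p under 0.05 (limma) was seen for 13.3% of the NRF2 genes, 2 higher. It was seen for 28.6% of the glutathione genes, 2 higher and 4 lower, against 10.7% of all genes. The lists share genes, Gsta4 among them.

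No other list held a called gene. In the list of ferroptosis and iron (18 tested, median −0.05), Cisd1, an iron-sulphur protein of the outer mitochondrial membrane, was at 234 ± 3.62 TPM in mKO and 257 ± 9.29 TPM in WT (−0.14, adjusted p = 0.334), and Acsl4, which loads membranes with polyunsaturated acids, at 9.10 ± 0.777 and 11.0 ± 0.865 TPM (−0.24, adjusted p = 0.353). In NADPH supply (12 tested, median 0.03), Mthfd1 was at −0.14 (adjusted p = 0.372) and Idh2, the matrix isocitrate dehydrogenase that makes NADPH, at 0.15 (adjusted p = 0.469). Among superoxide sources (8 tested, median 0.01), Romo1 was at −0.22 (adjusted p = 0.257) and the oxidase Nox4 at 0.29 (adjusted p = 0.499).

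The list of selenoprotein synthesis held genes of that synthesis together with selenoproteins (14 tested, median −0.00). Selenow, an abundant muscle selenoprotein, was at 891 ± 33.3 TPM in mKO and 987 ± 64.8 TPM in WT (−0.15, adjusted p = 0.452) and the elongation factor Eefsec at −0.14 (adjusted p = 0.671). Among metal handling genes (8 tested, median −0.02) the mitochondrial iron importer Slc25a28 was at −0.14 (adjusted p = 0.465) and the copper chaperone Atox1 at 0.11 (adjusted p = 0.633). In the peroxisome list, home of catalase (18 tested, median 0.00), the fatty acid transporter Abcd2 was at −0.33 (adjusted p = 0.376).

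**Figure D5:**
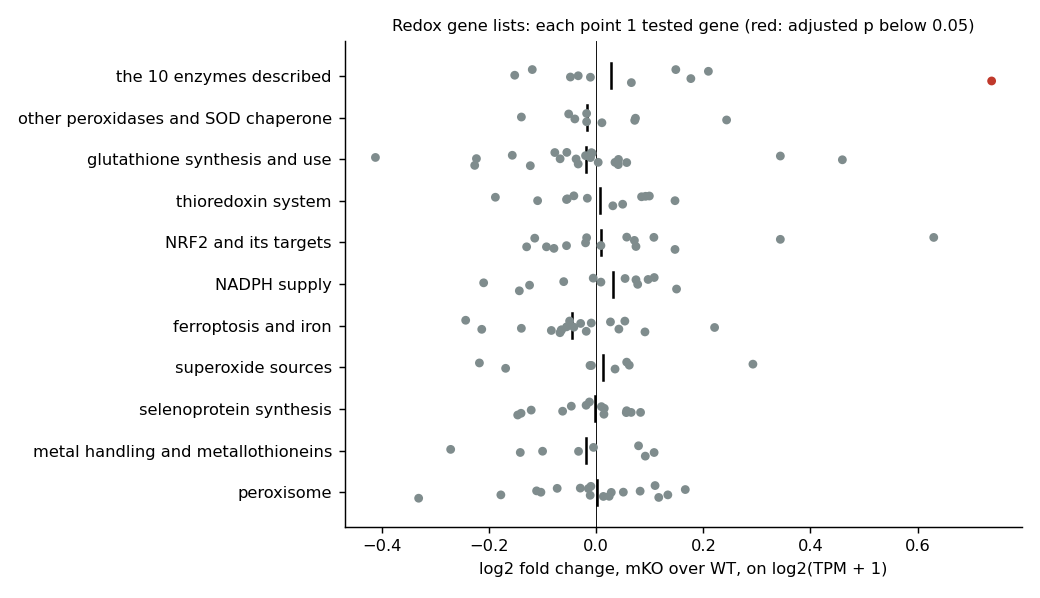
Log2 fold change, mKO over WT, of each tested gene in the 10 enzymes and in 10 further redox lists, with a black bar at the median of each list. Medians lie between −0.05 and 0.03, and Sod3 is the called gene, at 0.74.

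The 5 genes whose profile over the 6 libraries lay closest to that of Sod3, by root mean square distance of log2(TPM + 1) values centred on WT, were Mamdc2, Tnfrsf23, Tecta, Nog and Cdh22, at distances of 0.14 to 0.17 log2 units. Mamdc2 stood at 9.46 ± 0.887 TPM in mKO and 5.01 ± 1.10 TPM in WT (log2 fold change 0.81, adjusted p = 0.0515, limma), and Nog at 6.63 ± 1.29 and 3.24 ± 0.247 TPM (0.84, adjusted p = 0.0414). Nog was the only called gene of the 5, and it did not pass with any 1 library left out (adjusted p from 0.0567 to 0.248). In each of these 5 genes mKO replicate 2 was the highest library, as for Sod3. The distance is a description over the 6 libraries. Genes that rose by a like amount are close by construction, and the choice favours a shared highest library in the same way.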

How the data were processed

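RNA of 3 mKO and 3 WT soleus libraries was poly(A)-selected and made into directional libraries, per the labels' protocols. For every library the authors deposited gene-level TPM values, which sum to 1000000. The submitters' processing notes name the build GRCm39. Aligner, counting tool and strand setting are not given in the sources used here. Groups came from the labels, and p-values measure the spread between these libraries, which may be technical.

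limma-trend (limma 3.58.1, R 4.3.3) compared the genotypes on log2(TPM + 1), with no covariate, after removal of genes that reached 1 TPM in fewer than 3 libraries. This scale understates changes of low genes. Reads were recovered as TPM times exon length (GENCODE M21, GRCm38) times a library scale, whole within 0.05 reads in all libraries. They served for depth and limma-voom. The fit was run on simulated reads with a spread shared by all genes and changes of 1 or 2 log2 units. It recovered 99 of 99 and 96 of 96 changed genes, with 11 false calls. Changes as small as that of Sod3, and spreads that differ between genes, were not simulated. Counting error covers sampling only.

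All 10 genes are named. Of each list, up to 4 called genes or else the 2 of smallest p are named, and the 5 nearest profiles of the called gene at a mean above 2 TPM, without predicted genes. Ccs, Gpx2, Gpx5, Gpx6 and the cell type markers fall outside this rule and were named after their values were seen, and some items it names are not reported here. The genes and lists were chosen with earlier results of these data known. Of 13 genes of the NADPH list, Nnt was left out, having numbered entries only.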

Additional observations from a re-analysis of the deposited data

How the results depend on the processing

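The 9 uncalled enzymes passed in none of the 14 alternatives run beside the replicate block (lowest adjusted p = 0.115, limma) nor with the block (lowest 0.364), and signs turned only for Sod1, Gpx3, Prdx3 and Aifm2. With no filter, 6 genes were called in place of 64 and 0 of the 10 enzymes, with 24964 genes tested. Without an intensity trend 35 genes and 0 enzymes were called. Dropping the mitochondrially encoded genes from the TPM sum gave 41 genes, 32 of them among the 64. The cause was not tested. Fits that each lacked 1 library, and so had fewer samples, called between 4 and 94 genes and 0 to 1 enzymes. limma-voom, chosen after seeing the data, called 87. The split of calls was 12 higher and 52 lower as reported, 21 and 20 once those genes were dropped, and 35 and 52 with limma-voom. In the share of Sod3, the length of the longest coding transcript gave a difference of 1.69 points in place of 5.34, since Sod1 then weighs more. Replicate numbers were not shown to pair the samples: same-number correlations of deviations were 0.09, 0.05 and 0.13, though each library correlated best with its own number. With a replicate block 21 genes and 0 enzymes were called, and Sod3 had an adjusted p of 0.0881 and Nqo1, uncalled as reported, one of 0.0422. Each enzyme had at least 457 reads per library.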
